A study of Mus musculus with 125 samples.

Results

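The regions described here are the very wide consensus peaks of an ATAC-seq series on mouse B cell leukaemia, those 3000 bp or longer on chromosomes 1 to 19. ATAC-seq marks open chromatin, because the transposase Tn5 inserts sequencing adapters where DNA is not covered by nucleosomes, and a consensus peak is the union of the peaks called in the single libraries. Of the 256400 consensus peaks, 5183 (2.02%) were members, and 90 further peaks of this length lay on other chromosomes or scaffolds and were left out. Length alone chose the members. It was nevertheless set by the union over every library, those with natural killer (NK) cells included.

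The series held 125 libraries of 4 BCR/ABLp185-transformed mouse B-ALL cell lines, each carrying DNA barcodes and GFP and sorted as GFP+ cells after culture. Lines A and B share a parental line and lines C and D share a second one, and A/B with C/D is therefore a comparison of parental lines. The NK groups were B-ALL cells co-cultured 1:1 with IL-2-activated primary mouse NK cells at time point 1 (NK_TP1, 42 libraries) or after renewed co-culture at time point 2 (NK_TP2, 42 libraries). They were set against B-ALL alone at time point 1 (41 libraries). The labels place time point 1 at day 4, or day 6 in experiment 9.7, and time point 2 at day 10, or day 16 in 9.7. The study's methods place time point 2 later than day 10, so its day is uncertain outside 9.7. Experiments 9.5, 9.6 and 9.7 covered the 4 lines, 9.5.1 line C only and 9.6.1 line D only, so that line and experiment formed 14 combinations (6 of A/B, 8 of C/D) with 42 groups. Of these, 41 groups had 3 libraries and D alone in experiment 9.6.1 had 2. No B-ALL alone library was from time point 2, where NK exposure and time in culture cannot be told apart. ATAC-seq of a cell population also cannot tell apart a region that opened further in every cell and one that was open in more of the cells, or in more of the barcoded clones.

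Most accessible sites are narrow, the space of a nucleosome-depleted enhancer or promoter. Wide accessible regions arise where such sites lie side by side, as over CpG-rich promoters of highly transcribed or developmental genes and over clustered enhancers near genes of cell identity. In cells exposed to NK cells, the best known chromatin response is that to interferon-γ (IFN-γ), which acts at gamma-activated sites (GAS) and, through IRF factors, at interferon-stimulated response elements (ISRE). Its classical targets are immunity-related GTPases and guanylate-binding proteins, which attack the vacuoles of intracellular pathogens.

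The sequences printed here are promoters and 200-base windows of selected members, shown so that the values given further on can be read beside the DNA. The promoters of the members that rose most are not among them. Of the GTPase promoters printed, that of Igtp lies in a member below the fold threshold given further on in A/B. That of Tgtp1 lies in a member called at NK_TP1 only. Promoters are from RefSeq on GRCm38.p6, from 250 bases before to 50 bases after the transcription start site (TSS), and windows are the forward strand of the GRCm38 reference genome. Capitals mark matches on either strand to GAS (TTCNNNGAA), the ISRE core (GAAANNGAA), the GC box (GGGCGG), the CCAAT box (CCAAT) and the TATA box (TATAAA) in the promoters, and matches to GAS and the ISRE core only in the windows. GAS and ISRE matches may overlap. Positions are counted from the TSS. Among all 32851 promoters of the RefSeq table, 8.3% held a GAS match, 8.56% an ISRE core, 35.7% a GC box, 37.4% a CCAAT box and 13.6% a TATA box. A match is a description of the letters and not a bound site. The first set belongs to 4 IFN-γ-induced GTPase promoters on chromosome 11, chr11:48992197-48992496, chr11:49064163-49064462, chr11:48927133-48927432 (all minus strand) and chr11:58199306-58199605 (plus strand).
Tgtp1: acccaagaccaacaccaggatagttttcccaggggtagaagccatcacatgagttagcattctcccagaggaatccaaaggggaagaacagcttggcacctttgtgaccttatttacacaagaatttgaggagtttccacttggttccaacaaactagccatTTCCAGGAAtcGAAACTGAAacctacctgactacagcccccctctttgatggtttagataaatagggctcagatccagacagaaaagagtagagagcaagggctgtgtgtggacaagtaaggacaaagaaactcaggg
Tgtp2: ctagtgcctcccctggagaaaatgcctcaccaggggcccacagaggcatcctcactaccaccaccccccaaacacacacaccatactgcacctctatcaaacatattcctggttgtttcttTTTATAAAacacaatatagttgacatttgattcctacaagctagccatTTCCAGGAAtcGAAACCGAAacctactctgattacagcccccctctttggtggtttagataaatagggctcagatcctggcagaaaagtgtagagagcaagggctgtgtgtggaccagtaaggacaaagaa
Gm12185: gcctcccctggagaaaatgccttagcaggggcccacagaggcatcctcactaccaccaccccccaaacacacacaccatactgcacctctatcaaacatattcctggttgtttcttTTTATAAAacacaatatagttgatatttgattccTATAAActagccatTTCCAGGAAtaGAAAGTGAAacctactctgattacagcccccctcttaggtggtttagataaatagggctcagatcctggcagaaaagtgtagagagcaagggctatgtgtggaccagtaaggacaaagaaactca
Igtp: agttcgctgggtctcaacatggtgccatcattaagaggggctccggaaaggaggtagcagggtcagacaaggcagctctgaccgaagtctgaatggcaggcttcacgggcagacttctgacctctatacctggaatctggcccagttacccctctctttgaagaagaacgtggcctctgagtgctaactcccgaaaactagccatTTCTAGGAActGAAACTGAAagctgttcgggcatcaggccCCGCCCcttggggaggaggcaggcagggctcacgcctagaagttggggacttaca
In each of these promoters 1 GAS match was followed by 1 ISRE core. The matches began at -88 and -77 in Tgtp1, at -81 and -70 in Tgtp2, at -86 and -75 in Gm12185 and at -45 and -34 in Igtp. TATA matches began at -129 and -127 in Tgtp2 and at -134, -132 and -100 in Gm12185, and Igtp held a GC box at -5. Irgm1, another GTPase of this family, held 2 ISRE cores at -30 and -24 and no GAS match, and Gbp2 held 1 ISRE core at -58.

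Distal members that opened with NK cells are represented by windows at chr5:105263304-105263503, in the member near Gbp10 with 2 GAS matches and 1 ISRE core, and at chr7:74698072-74698271, in the member near Gm7726 with 2 ISRE cores. Over their whole length these members held 5 GAS and 1 ISRE match, and 1 GAS and 5 ISRE matches. The window at chr7:118577359-118577558 is from the member near Tmc7, which closed most in A/B, and its 1 GAS match was the only such match in that member.
near Gbp10: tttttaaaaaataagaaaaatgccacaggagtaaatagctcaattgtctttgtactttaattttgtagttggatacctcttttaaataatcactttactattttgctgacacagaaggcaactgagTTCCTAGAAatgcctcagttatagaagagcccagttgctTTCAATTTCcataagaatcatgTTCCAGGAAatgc
near Gm7726: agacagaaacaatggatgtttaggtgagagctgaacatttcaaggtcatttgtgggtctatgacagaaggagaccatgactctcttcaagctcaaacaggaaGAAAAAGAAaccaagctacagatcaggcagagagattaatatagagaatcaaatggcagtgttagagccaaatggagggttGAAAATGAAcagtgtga
near Tmc7: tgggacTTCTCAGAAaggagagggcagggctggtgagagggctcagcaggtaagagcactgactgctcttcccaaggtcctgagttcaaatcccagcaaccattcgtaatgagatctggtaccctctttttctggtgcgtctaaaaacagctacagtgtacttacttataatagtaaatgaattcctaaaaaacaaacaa

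Promoters of members that fell in A/B are shown by Oaf, chr9:43239767-43240066 on the minus strand, and Dhrs9, chr2:69380212-69380511 on the plus strand. Neither held a GAS or ISRE match. Oaf held GC boxes at -130 and 23 and a CCAAT box at -137, and Dhrs9 a GC box at -73 and TATA matches at -124 and -122.
Oaf: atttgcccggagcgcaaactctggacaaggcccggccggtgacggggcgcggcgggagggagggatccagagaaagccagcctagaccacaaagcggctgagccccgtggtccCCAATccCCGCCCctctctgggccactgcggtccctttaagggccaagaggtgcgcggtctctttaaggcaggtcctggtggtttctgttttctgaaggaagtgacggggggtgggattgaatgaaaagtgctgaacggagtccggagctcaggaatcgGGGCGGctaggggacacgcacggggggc
Dhrs9: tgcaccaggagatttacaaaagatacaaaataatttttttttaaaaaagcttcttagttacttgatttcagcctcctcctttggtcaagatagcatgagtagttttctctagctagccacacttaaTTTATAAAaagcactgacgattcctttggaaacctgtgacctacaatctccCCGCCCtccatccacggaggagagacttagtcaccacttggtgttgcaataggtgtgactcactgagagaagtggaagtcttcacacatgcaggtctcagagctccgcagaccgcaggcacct

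Members had a median length of 3428 bp, and the quartiles were 3180 and 3839 bp. There were 986 members (19%) of 4000 bp or longer, 157 of 5000 bp or longer and 38 of 6000 bp or longer. The longest was the member over the TSSs of Zeb2, a zinc-finger repressor of transcription, at 9029 bp (chr2:45108530-45117558). The next were the members of Zbtb7b at 8204 bp, near Cbx8 at 8195 bp, of Bcl6 at 8127 bp, near Ptma at 7726 bp, of Cds2 at 7199 bp, near Gm39556 at 7150 bp, of Pde4b at 7068 bp, of Igf1 at 6998 bp and of Junb at 6982 bp. Here a member is named after the genes whose TSS it holds, and as "near" the gene with the closest TSS where it holds none. Zbtb7b and Bcl6 encode transcription factors of lymphocyte differentiation, Cbx8 a Polycomb subunit, Pde4b a phosphodiesterase that degrades cyclic AMP, and Junb a subunit of AP-1. The length limit fell inside a smooth distribution. Lrp5 and the member near Filip1l were just inside it at 3000 bp, with 4.0 and 7.74 CPM per kb in B-ALL alone, and the peaks near 4930517J16Rik and near Catsperd just outside it at 2999 bp, with 27.9 and 2.12 CPM per kb. CPM are counts scaled to the library's TMM-adjusted total in consensus peaks, here divided by the length of the peak to give a density.

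Members were few, but they held 15.6% of all counts on 18.68 Mb, against 14.8% of counts in the 179172 peaks under 1 kb. Density rose with width, with a median of 5.14 CPM per kb in members, against 3.62 in peaks of 2 to 3 kb, 2.1 in peaks of 1 to 2 kb and 1.28 in peaks under 1 kb, all in B-ALL alone. The median member overlapped a called peak in 123 of the 125 libraries, against 111, 36 and 1 in the narrower classes. Members also lay at promoters more often, since 39.7% held the TSS of a protein-coding gene, against 31.1%, 15.8% and 1.98%. A wide peak covers more bases in which a TSS can fall, and per kb the members held 0.421 annotated TSSs, against 0.482 in peaks of 2 to 3 kb. The median GC content was 49.7% in members and 48.9% to 49.4% in the narrower classes. The ratio of observed to expected CpG was 0.242 in members, against 0.229, 0.201 and 0.166. These are descriptions of the consensus table without a test, and a peak called in more libraries had more chances to be extended.

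By position, 2059 members (39.7%) held a protein-coding TSS and 295 (5.69%) the TSS of another gene only. Members without a TSS were placed by their centre base, which lay in an exon in 188 (3.63%), in an intron in 1363 (26.3%) and between genes in 1278 (24.7%). Other parts of such a member can overlap an exon or a gene. Together they held a TSS of 2192 of 21992 protein-coding genes (9.97%). Promoter members were denser, at a median of 10.2 CPM per kb, against 3.49 in introns and 3.12 between genes. Their CpG ratio was 0.476, against 0.197 and 0.191. The densest members in B-ALL alone were near Csk at 48.1 CPM per kb, Ppp2r3d at 45.9, Kctd12 at 45.0, near Sept9 at 44.6 and Fam72a with Srgap2 at 43.7. Csk encodes the kinase that restrains Src-family kinases. At the other end were Gm5970 at 0.366, AC132320.1 at 0.408, near Gm7726 at 0.424, Gm4841 at 0.465 and F830016B08Rik at 0.495 CPM per kb, and each of these 5 was among the members whose accessibility rose with NK cells. The level in B-ALL alone both picked these 5 and enters the fold change, so their rise is a description. In RefSeq promoters of members, 59.2% of 2296 held a GC box, against 35.7% of all promoters, while TATA boxes were in 7.62% against 13.6%, GAS matches in 6.97% against 8.3% and ISRE cores in 8.06% against 8.56%.

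Few members were 3000 bp wide in any one library. At least 1 library had a peak of 3000 bp or longer in 1833 members (35.4%), 63 or more libraries had one in 143 (2.76%) and all 125 in 4. Ppp2r3d had such a peak in 121 libraries. The widest peak of any single library had a median of 2747 bp and covered a median of 79.9% of the member. It covered 90% or more in 1560 members. Counted by base, a median of 27.3% of a member was called in 63 or more libraries, the longest such stretch had a median of 826 bp, and a median of 7.88% was called in a single library. Only 171 members (3.3%) would be 3000 bp or longer over the bases called in 63 or more libraries. The widest peaks in 1 library were those of Cds2 at 6947 bp, Junb at 6799 bp, near Gm39556 at 6675 bp, Clic1 with Msh5 at 6211 bp and Meis2 at 6154 bp. Others were chains of separate peaks. Libraries that called Clic1 with Msh5 had 3.15 peaks in it on average, and those that called Zbtb7b, Bcl6, near Ptma and near Socs1 had 3.14, 2.94, 2.92 and 2.91.

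**Figure D1:**
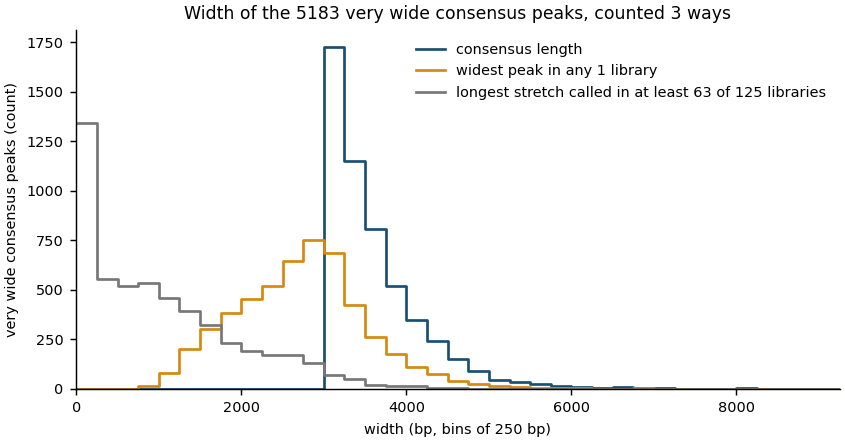
Width of the 5183 members in bins of 250 bp, counted by consensus length, by the widest peak in any 1 library and by the longest stretch called in at least 63 of 125 libraries. The medians were 3428, 2747 and 826 bp, so the consensus was wider than most single-library peaks.

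Single libraries decided the membership of many peaks. Leaving out 1 library took between 9 and 166 members under 3000 bp for 124 of the libraries (median 21), and 438 (8.45%) for replicate 2 of D NK_TP2 in experiment 9.6. That library stood apart, with 101211 called peaks against 26047 to 62541 in the others, and with the lowest share of its counts in members (12.3%). For 2285 members (44.1%) there was some library without which they would have been under 3000 bp. The NK_TP1 libraries alone kept 2756 members (53.2%) at 3000 bp or longer and the NK_TP2 libraries 2659 (51.3%), against 2163 (41.7%) for B-ALL alone. The A/B libraries kept 2578 (49.7%) and the more numerous C/D libraries 3774 (72.8%).

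Total counts ranged between 3083547 and 13580746 per library, members took 12.3% to 17.8% of them, and 3023 to 4838 members overlapped a called peak in a library. Over the 125 libraries, which are not independent of cell line, experiment and arm, the number of members called followed the total counts with Pearson's r = 0.805 and Spearman's rho = 0.831, and the width called in members with 0.727 and 0.721. Markers of other cells were summed in each library. Of 15 NK cell genes, 9 had a TSS in a consensus peak, and those peaks summed to 40.4 to 62.3 CPM in A/B NK_TP1 and 34.4 to 57.3 in A/B NK_TP2 libraries, against 39.2 to 52.9 in A/B alone. In C/D they summed to 40.5 to 62.6 CPM at NK_TP1 and 40.9 to 80.7 at NK_TP2, against 44.5 to 57.3 alone. Cd7, Klra4, Klra8, Klra9, Klrk1 and Ncr1 had none. Peaks at the TSSs of 8 B cell genes summed to 409 to 948 CPM, those of 6 of 9 T cell genes to 62.5 to 129 CPM, and those of 9 of 10 myeloid genes to 34.1 to 81.5 CPM. In A/B the median sums moved at NK_TP1, where NK cell genes were at 55.6 CPM, against 47.6 alone, and myeloid genes at 47.7, against 41.2. The B cell genes were at 615 CPM, against 707 alone, and the T cell genes at 97.2, against 110. At NK_TP2 in A/B the NK cell genes were at a median of 50.2 CPM. In C/D they were at 51.1 CPM at NK_TP1 and at 50 at NK_TP2, against 51.4 alone. The part of these shifts in the comparisons with NK cells was not tested.

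More members were called per library in NK co-cultures at TP1, and so were more peaks of any width. The mean was 4434 members in NK_TP1 libraries, against 4193 in B-ALL alone, a difference of 240.8 (SD 192.0 over 14 combinations) that was positive in 13 of 14 (exact two-sided sign-flip permutation p = 0.0006104, 0.003662 after adjustment over 6 such tests). All peaks called per library averaged 50113 at NK_TP1, against 44695 alone, and were more in 13 of 14 combinations. Per 100 called peaks the members were 8.9 at NK_TP1, against 9.47 alone, and fewer in 12 of 14. The width called within members was 6.868 Mb in NK_TP1 libraries, against 6.191 Mb alone, and rose in 10 of 14 combinations (exact permutation p = 0.005249, adjusted 0.01575). The combinations share 5 experiments, and over the means of these the rises no longer passed (exact permutation p = 0.0625, the smallest possible, for members called and 0.1875 for width). In A/B the width was higher in 3 of 6 combinations (exact permutation p = 0.25). Depth moved with both. Mean total counts were 8546957 at NK_TP1, against 7151260 alone, and higher in 13 of 14 combinations, and the part of depth in these differences was not tested. Without the libraries numbered replicate 3 the difference in width was 0.5045 Mb with an exact permutation p of 0.07019. At TP2 the means were 4179 members against 4193 alone (exact permutation p = 0.8655) and 6.226 Mb against 6.191 Mb (p = 0.9094, exact).

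The share of counts within members split by parental line at TP1. Over the 125 libraries it followed the total counts with Pearson's r = 0.375 and Spearman's rho = 0.354. In A/B, NK_TP1 libraries had 15.45% of their counts in members, against 16.13% alone, lower in 6 of 6 combinations (exact permutation p = 0.03125, the smallest this design allows). In C/D, the shares were 15.49% at NK_TP1 and 15.13% alone, higher in 7 of 8 (exact permutation p = 0.03906). The NK effect differed between A/B and C/D by -1.04 percentage points (exact permutation over 3003 relabelings, p = 0.00133, adjusted 0.00798). The relabelings treat the 14 combinations as independent, although these share experiments and a single parental line stands on each side. This p-value therefore does not measure a spread between parental lines. Over the 14 combinations together the shares were 15.47% and 15.56% (exact permutation p = 0.6193). At TP2 they were 15.32% with NK cells and 15.56% alone (exact permutation p = 0.4017).

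In A/B, 4695 members could be tested, and 130 had higher and 47 lower accessibility at NK_TP2 than in B-ALL alone. A call needed both an adjusted p of at most 0.05 (edgeR quasi-likelihood test) and a log2 fold change of at least 0.58 in either direction. These were 2.77% and 1.0% of the members, against 5.06% and 1.37% of all 48997 consensus peaks tested. The largest rises were an IFN-γ-induced GTPase cluster, and the largest falls were near Tmc7 and at Oaf and Zfp827. In C/D, 41 members rose and 33 fell at NK_TP2, 0.833% and 0.671% of 4920, against 1.73% and 1.01% of all 55461 peaks. At NK_TP1, 186 members rose and 24 fell in A/B (3.96% and 0.511%, against 6.9% and 1.07% of all peaks), and 44 rose and 1 fell in C/D (0.894% and 0.0203%, against 1.71% and 0.11%). Thus the share of members called was below that of all peaks in each of these 4 fits and in each direction, though not in every single experiment, as given further on. The remaining 488 members in A/B and 263 in C/D did not overlap a called peak in every library of any group or failed the count filter. A member absent from B-ALL alone entered the test through its NK groups.

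**Figure D2:**
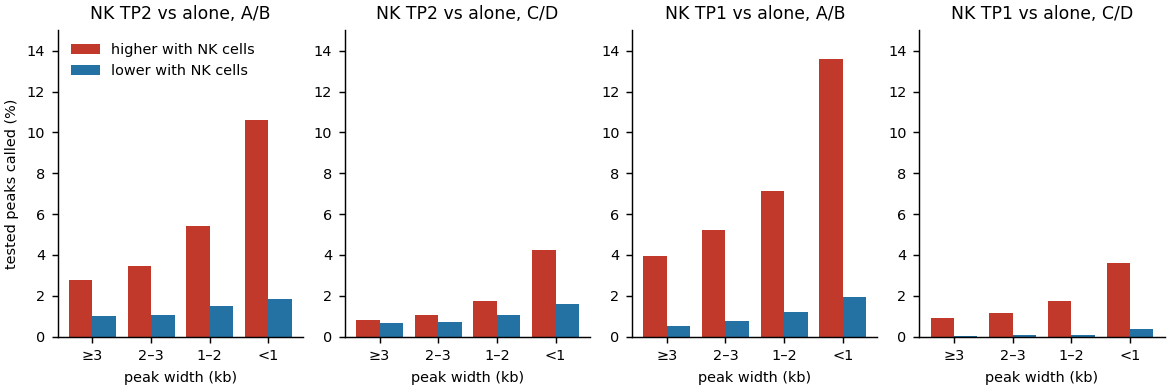
Bars give the percentage of tested consensus peaks called higher or lower with NK cells than in B-ALL alone, by peak width in kb, for NK_TP2 and NK_TP1 in A/B and in C/D. In A/B at NK_TP2 the share called higher was 2.77% in peaks of 3 kb or more, 3.46% in peaks of 2 to 3 kb, 5.44% in peaks of 1 to 2 kb and 10.6% in peaks under 1 kb.

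The share called higher fell with width in each of the 4 comparisons. At NK_TP1 in A/B it was 3.96% in members, against 5.21%, 7.14% and 13.6% in the narrower classes, and in C/D it was 0.894%, against 1.15%, 1.74% and 3.59%. These are shares of tested peaks. In A/B, 4695 of 5183 members were tested, but only 4206 of 179172 peaks under 1 kb, and a peak could enter through its NK groups. The trend with width therefore does not describe all narrow peaks. The fold changes of members were also smaller. In A/B at NK_TP2, 35.0% of members had an adjusted p of 0.05 or less whatever their fold change, against 30.7% of all peaks, while the middle 90% of members spanned log2 fold changes of -0.281 to 0.432, against -0.372 to 0.974 in peaks under 1 kb. Median log2 fold changes of members were -0.0269 (A/B) and 0.00523 (C/D) at NK_TP2, and -0.0511 and -0.0145 at NK_TP1, beside -0.0132 over all peaks tested in A/B at NK_TP2 and 0.00344 in C/D.

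Within single experiments the member counts varied, each on fewer libraries, and so did those of all peaks. In 7 of 32 shares by experiment and direction the members were above all peaks. In A/B at NK_TP2, 280 members rose and 56 fell in experiment 9.5, 292 and 43 in 9.6, and 110 and 137 in 9.7. Of the members tested, 5.96%, 6.22% and 2.34% rose, against 7.94%, 7.15% and 4.86% of all peaks, and 1.19%, 0.916% and 2.92% fell, against 2.22%, 1.71% and 2.8%. In C/D at NK_TP2 the counts higher and lower were 404 and 52 in 9.5, 11 and 7 in 9.5.1, 139 and 53 in 9.6, 92 and 280 in 9.6.1, and 318 and 620 in 9.7. The falls in 9.6.1 and 9.7 were 5.69% and 12.6% of members, against 3.64% and 11.2% of all peaks, and the rises in 9.5 and 9.7 were 8.21% and 6.46%, against 9.18% and 11.2%. At NK_TP1 they were 319 and 66, 179 and 18, and 262 and 110 in A/B in the same order of experiments, and 48 and 20, 14 and 6, 57 and 5, 38 and 99, and 87 and 68 in C/D. Between 0.285% and 6.79% of members rose at NK_TP1 in these experiments, against 0.142% to 9.0% of all peaks. Between 0.102% and 2.34% of members fell, against 0.133% to 3.22% of all peaks. The 99 falls in C/D in 9.6.1 were 2.01% of members, against 1.01% of all peaks. Where a member had to be called in every library to be tested, 24 of 2440 tested were called in A/B and 7 of 2457 in C/D at NK_TP2. The share of all peaks under that filter is not given here.

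Members that rose were sparse and mostly distal. The 130 that rose in A/B at NK_TP2 had a median density of 1.73 CPM per kb in B-ALL alone, against 6.04 in all 4695 tested members, a GC content of 43.9%, against 49.8%, and a CpG ratio of 0.165, against 0.249. Of them, 22 (16.9%) held a protein-coding TSS, against 41.6% of tested members. The 47 that fell were at 5.21 CPM per kb and 51.4% GC, and 16 (34%) held a protein-coding TSS. By position, 4.68% of intronic, 3.22% of intergenic and 1.13% of promoter members rose. The level in B-ALL alone enters the fold change, so these are descriptions. Most rises stood alone. The 130 fell into 116 runs of members within 100000 bp of one another, and the largest run was 8 members. Of the 130, 121 were off chromosome 18.

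The central 1000 bases of the members that rose held the interferon motifs spelled out beside the printed promoters more often than members at large. In A/B at NK_TP2, 36.9% held a GAS match and 36.9% an ISRE core, against 26.4% and 28.0% of all members and 26.0% and 27.9% of peaks of 1 to 3 kb. At NK_TP1 in A/B, 38.7% and 45.2% of the members that rose held them. Of the members that fell in A/B at NK_TP2, 23.4% held a GAS match and 36.2% an ISRE core. In C/D at NK_TP2, 34.1% and 39.0% of the members that rose held them, and 15.2% and 30.3% of those that fell. These are shares without a test. The members that rose in A/B at NK_TP2 had a median GC content of 43.9%, against 49.8% in tested members. The part of base composition in the motif shares was not tested. Without the 9 members on chromosome 18 the shares of the members that rose in A/B at NK_TP2 were 37.2% and 36.4%.

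The IFN-γ-induced GTPases were the one gene group in which many members rose. Of 18 genes on the list, 14 had a TSS in a member, and 17 members held or were nearest to one. In A/B, 8 of 17 rose at NK_TP2 and 11 at NK_TP1, and in C/D 6 and 8 did, with none lower in either. The medians of the 17 log2 fold changes were 0.551 (NK_TP2) and 0.897 (NK_TP1) for A/B, with 0.328 and 0.53 for C/D, beside medians near 0 over all peaks. This list is a known IFN-γ response, and it was chosen with earlier results of these data known. Members of the list with no called peak in B-ALL alone owed their place in the test to NK libraries.

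Iigp1 encodes an immunity-related GTPase, and its first member (chr18:60373256-60377106) overlapped no called peak in any B-ALL alone library. In A/B it had a lowest, median and highest level of 23.1, 38.9 and 50.7 CPM at NK_TP1 and of 14.6, 24.6 and 40.5 CPM at NK_TP2, against 0.918, 2.55 and 4.93 CPM alone. In C/D, NK_TP2 libraries had 8.24, 22.8 and 34.7 CPM, against 1.57, 3.05 and 5.37 CPM alone. No NK library overlapped the range of the alone libraries in either parental line. The log2 fold change at NK_TP2 was 3.18 ± 0.13 (SE) in A/B and 2.73 ± 0.12 in C/D. Since this member entered the test through its NK groups, these values are a description.

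Along the same stretch of chromosome 18, 7 further members rose in A/B at NK_TP2. Gm4951 had a log2 fold change of 3.37 ± 0.15 in A/B and 2.46 ± 0.14 in C/D, Gm4841 of 3.0 and 2.51, AC132320.1 of 3.0 and 1.70, F830016B08Rik of 2.65 and 2.15, a second Iigp1 member of 2.43 and 1.83, near BC023105 of 1.90 and 1.13, and Gm5970 of 1.24 and 1.5. Gm4951 was at 9.96, 19.5 and 34.5 CPM in A/B NK_TP2 libraries, against 0.392, 1.83 and 4.03 CPM alone. Gm5970 was the weakest, at 0.713, 3.37 and 9.28 CPM with NK cells and 0.344, 1.95 and 3.35 CPM alone, and its groups overlapped. The treatment of reads that map to several copies of related genes was not known here, so levels of single copies in this family are uncertain.

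**Figure D3:**
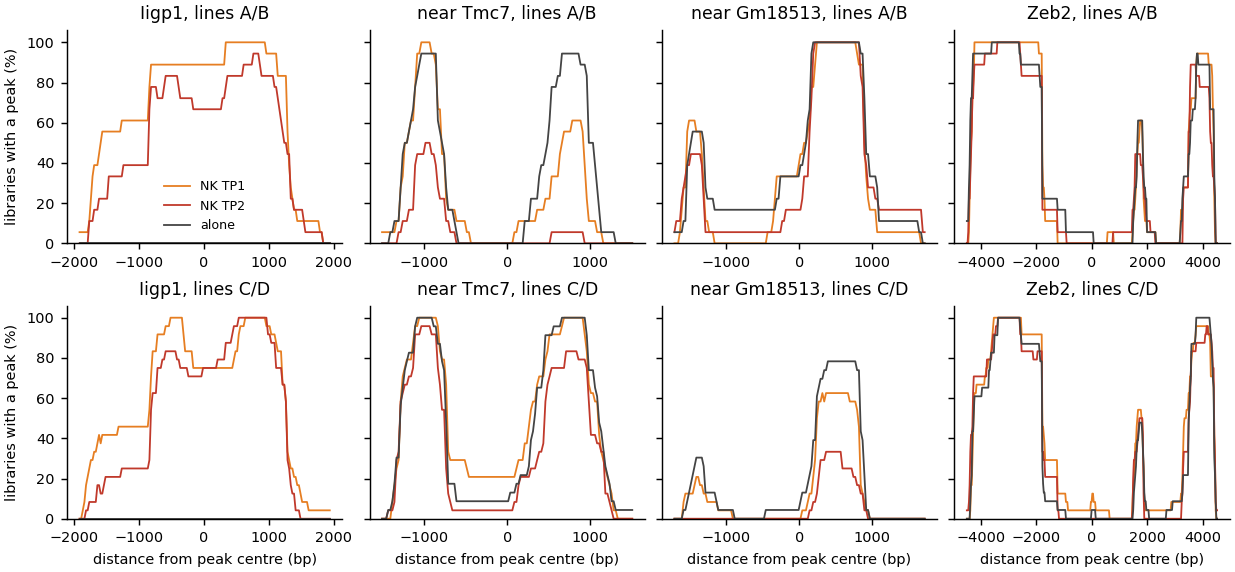
Lines give the percentage of libraries with a called peak along 4 members, by distance from the member's centre in bp, in each arm of A/B (top) and C/D (bottom). Over Iigp1 no B-ALL alone library was called and up to 100% were at NK_TP1, while near Tmc7 at most 50% of A/B NK_TP2 libraries were called on the left and 5.56% on the right, against 94.4% of A/B alone on either side.

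On chromosome 5 the member near Gbp10 (chr5:105259994-105264164), whose window is printed above, was at 14.2, 20.3 and 25.6 CPM in A/B NK_TP1 libraries and 6.54, 13.7 and 24.2 CPM at NK_TP2, against 1.44, 2.88 and 4.56 CPM alone. The groups did not overlap, and its log2 fold changes at NK_TP2 were 2.2 ± 0.14 (A/B) and 1.54 ± 0.13 (C/D). The member near Gbp6 stood at 2.03 and 1.27, and the member near Gbp11 at 0.68 and 0.20, of which the last missed the fold threshold.

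Of the GTPase promoters printed above, those of Tgtp1, Tgtp2 and Igtp had smaller log2 fold changes than Iigp1. The member of Tgtp2 was at 17.8, 23.7 and 26.6 CPM in A/B NK_TP1 and 12.8, 18 and 25.6 CPM in NK_TP2 libraries, against 7.53, 11.4 and 14.9 CPM alone, and the highest alone library was above the lowest NK_TP2 library. Its log2 fold changes were 0.97 at NK_TP1 and 0.70 at NK_TP2 in A/B, with 0.67 and 0.56 for C/D, the last below the fold threshold. Tgtp1, in a member that it shares with a TSS of Gm12185, stood at 0.91 and 0.55 in A/B and at 0.81 and 0.58 in C/D, called at NK_TP1 only. A separate member over Gm12185 (chr11:48925668-48928802) changed by 1.77 at NK_TP1 and 1.30 at NK_TP2 in A/B, and by 1.39 and 1.12 in C/D. Igtp with Irgm2 stood at 0.48 and 0.33 in A/B and Irgm1 at 0.21 and 0.11, neither past the threshold.

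Among guanylate-binding protein promoters, Gbp2 was at 51.8, 57.7 and 79.5 CPM in A/B NK_TP1 libraries, against 28.9, 40.9 and 49 CPM alone, and the groups did not overlap. Its log2 fold change in A/B was 0.61 at NK_TP1 and 0.30 at NK_TP2, and the second missed the fold threshold. The member with the TSSs of Gbp4, Gbp8 and Gbp9 stood at 0.69 and 0.44 in A/B, that of Gbp5 at 0.37 and 0.13 and that of Gbp7 at 0.40 and 0.11. The members of this family beyond the 4 taken by the naming rule were chosen after their values were seen, to account for the list.

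Other interferon genes moved at single members. Ly6a encodes Sca-1, a GPI-anchored surface protein that interferon induces, and its 5010 bp member (chr15:74995795-75000804) was at 28.9, 43.4 and 56.4 CPM in A/B NK_TP1 and 27.1, 36.8 and 64.1 CPM in NK_TP2 libraries, against 13.2, 19 and 23.5 CPM alone. In C/D it was at 23.7, 30.3 and 52.2 CPM at NK_TP2, against 10.3, 15.7 and 19.6 CPM alone. The ranges did not overlap in either parental line, and the log2 fold changes at NK_TP2 were 1.04 ± 0.07 (A/B) and 1.10 ± 0.06 (C/D). Rtp4, an interferon-induced gene of the antiviral list, changed by 0.91 ± 0.12 in A/B and 0.88 ± 0.11 in C/D. In experiment 9.7 it was no longer called at NK_TP2, at 0.523 in A/B (edgeR adjusted p = 0.08) and 0.304 in C/D (adjusted p = 0.0762). It was the only 1 of 8 members of that list that rose, in each of the 4 fits over all experiments, and the list median was 0.0957 for A/B and 0.168 for C/D at NK_TP2. Oas3, an oligoadenylate synthetase, stood at 0.48 ± 0.06 in A/B and 0.53 ± 0.05 in C/D, below the fold threshold in both.

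No member of the MHC class I list (B2m, H2-Q6, H2-T22 and Tap2) or the MHC class II list (Cd74, Ciita, H2-DMa and H2-Ob) was called at either time point in the fits over all experiments. B2m, the light chain of MHC class I, was at 44.0, 62 and 72.3 CPM in A/B NK_TP2 libraries, against 49.4, 60.6 and 68.8 CPM alone, and its log2 fold change was -0.018 ± 0.046. Ciita, the transcriptional activator of MHC class II genes, was at 31.2, 49.3 and 68.3 CPM at NK_TP2 and 24.1, 32.6 and 43.0 CPM alone in A/B. Its log2 difference was 0.55 ± 0.06 in A/B, with an edgeR adjusted p of 9.6e-11, and 0.38 ± 0.05 in C/D. Both were below the fold threshold, but Ciita passed it in A/B with the loess offset (0.64), in members called in every library (0.619), without replicate 1 (0.625) and in experiments 9.5 (0.657) and 9.7 (0.616), and in C/D in 9.7 (0.701). In the fits over all experiments, none of the 7 members of interferon signalling genes and none of the 9 of TNF and NF-κB targets was called with NK cells. Lists this short may hold no call at the shares of all members called.

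The list of B cell identity genes held more members than any interferon list but was also longer. In the interferon lists, 14 of 18 GTPase genes, 6 of 38 antiviral genes and 6 of 20 signalling genes had a TSS in a member. Hardly any member at genes of the B-ALL cells' own identity was called. Of 44 B cell identity and pre-BCR genes, 19 had a TSS in a member, and none of the 35 members of this list was called with NK cells in the fits over all experiments. The median log2 fold change at NK_TP2 was -0.0664 for A/B and 0.0761 for C/D. Cd79a, which encodes a signalling chain of the pre-BCR, was at 52.2, 95.8 and 136 CPM in A/B NK_TP2 libraries, against 61.8, 101 and 150 CPM alone, a log2 fold change of -0.23 ± 0.07. In C/D at NK_TP2 it was called higher in experiments 9.6.1 (0.601, edgeR adjusted p = 8.49e-06) and 9.7 (0.702, adjusted p = 1.47e-06). So was a member near Ebf1, a transcription factor of early B cells, in 9.6.1 (0.766) and 9.7 (0.82, adjusted p = 1.23e-08), and a second one in 9.7 (0.597). Over all experiments, none of the tested members among the 16 of STAT5 and BCR-ABL output genes, the 19 of chromatin regulators, the 12 of core histone clusters, the 6 of housekeeping genes or the 10 of cell cycle genes was called in these 4 comparisons. Actb stood at 110, 148 and 174 CPM in A/B NK_TP2 libraries, against 115, 157 and 189 CPM alone. The widest member, Zeb2, had a log2 fold change of -0.06 ± 0.05 (A/B) and -0.14 ± 0.05 (C/D), and its stretches of called peaks had the same places in each arm. Of the immediate early genes, 1 of 16 tested members rose in A/B at NK_TP1 (near Btg1, 0.92 ± 0.12) and 1 of 18 fell in C/D at NK_TP2 (near Klf6, -0.84 ± 0.16). Hoxb7 fell in A/B at NK_TP2 (-0.72 ± 0.10), the only 1 of 10 tested homeobox members called.

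Members at NK cell genes were few. Gzmb, which encodes granzyme B, was at 0.931, 2.74 and 5.3 CPM in A/B NK_TP2 libraries, against 0.918, 2.07 and 2.93 CPM alone, and was not tested there. In C/D it was at 0.968, 4.24 and 13.3 CPM at NK_TP2, against 1.95, 3.12 and 5.64 CPM alone (log2 fold change 0.29 ± 0.17, edgeR adjusted p = 0.172). The experiments went opposite ways, since it rose in 9.5 (0.998, edgeR adjusted p = 9.01e-05) and 9.6 (1.03, adjusted p = 0.00323) and fell in 9.7 (-1.14, adjusted p = 0.000624). Eomes, a transcription factor of NK cells and T cells, stood at -0.04 ± 0.07 (A/B) and -0.15 ± 0.08 (C/D). The part of residual NK cell DNA in other members was not tested.

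**Figure D4:**
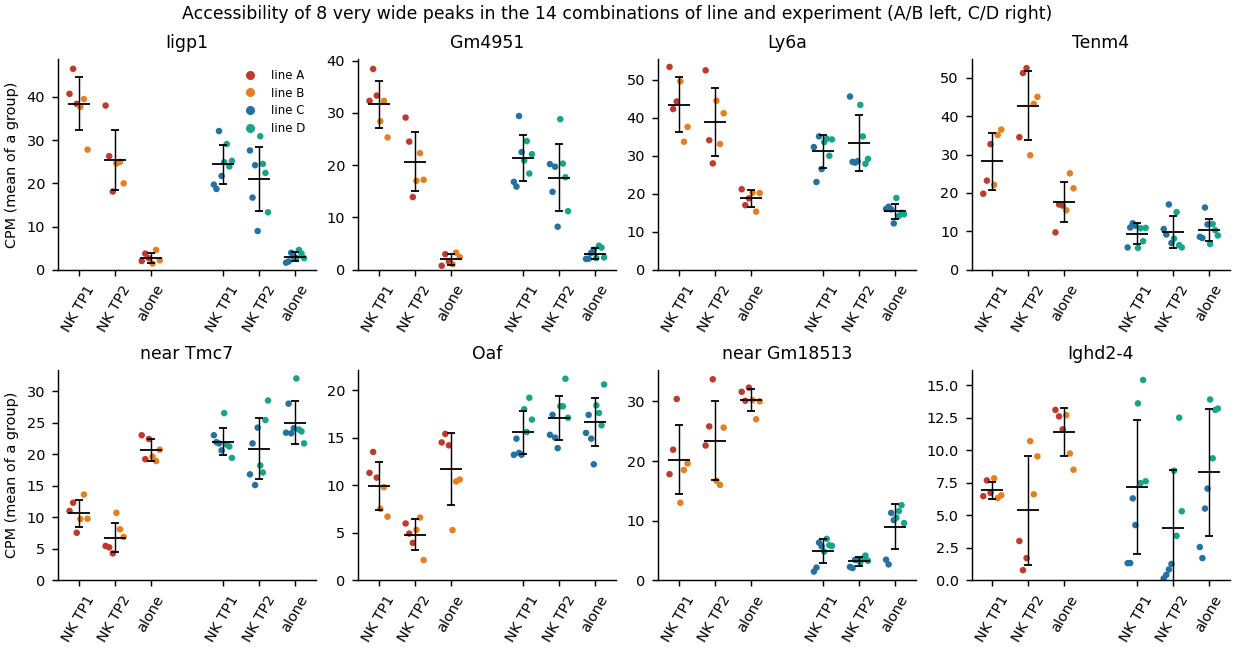
Accessibility of 8 members in CPM, each point the mean of a group of libraries (1 combination of cell line and experiment), with A/B on the left and C/D on the right of each panel. Bars are the mean and the SD over 6 combinations of A/B or 8 of C/D, and Iigp1, Gm4951 and Ly6a rose in both, Tenm4 rose in A/B, near Tmc7 and Oaf fell in A/B, near Gm18513 in C/D at NK_TP2, and Ighd2-4 in both.

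Outside the interferon genes, the member near Gm7726 (chr7:74695192-74699106), with the ISRE cores printed above, was at 3.84, 6.25 and 11.2 CPM in A/B NK_TP1 and 4.64, 8.58 and 13.4 CPM in NK_TP2 libraries, against 0.23, 1.21 and 3.28 CPM alone. The ranges did not overlap, and the log2 fold change at NK_TP2 was 2.49 ± 0.17. A member this sparse in B-ALL alone can enter the test through its NK groups, so these values are a description. The member near Gm7726 overlapped a called peak in 24 libraries only and was too sparse for the test in C/D. There it was at 0.95, 3.29 and 7.77 CPM at NK_TP2 and 0.362, 1.75 and 3.0 CPM alone. Tenm4, which encodes a teneurin, a transmembrane protein of cell adhesion, was at 19.3, 27.6 and 39.2 CPM in A/B NK_TP1 and 28.6, 41.5 and 69.9 CPM in NK_TP2 libraries, against 8.07, 18.1 and 27.0 CPM alone. It rose in 6 of 6 combinations of A/B (1.32 ± 0.08 at NK_TP2), while in C/D it was at 4.3, 8.68 and 18.5 CPM at NK_TP2, against 4.87, 10.3 and 16.8 CPM alone (-0.13 ± 0.10). Sh2d4b, an SH2 domain protein, rose in A/B by 1.10 ± 0.17, in 5 of 6 combinations, and was at -0.21 ± 0.14 in C/D.

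The largest fall in A/B was the intronic member near Tmc7 (chr7:118576189-118579238), whose window with 1 GAS match is printed above. It was at 6.62, 11.2 and 14.2 CPM in A/B NK_TP1 and 3.46, 6.45 and 13 CPM in NK_TP2 libraries, against 17, 20.6 and 25.1 CPM alone, with no overlap. The log2 fold change at NK_TP2 was -1.66 ± 0.10 (edgeR adjusted p = 7.31e-21), lower in 6 of 6 combinations. In C/D it was at 12, 21.4 and 30.6 CPM at NK_TP2, against 20, 23.9 and 33.7 CPM alone (-0.26 ± 0.07). Right of its centre it was called in up to 94.4% of A/B alone libraries and in up to 5.56% at NK_TP2.

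Oaf, whose promoter is printed above, was at 5.65, 10.0 and 16.2 CPM in A/B NK_TP1 and 1.72, 5.21 and 7.52 CPM in NK_TP2 libraries, against 3.59, 12.4 and 17.5 CPM alone. It fell in 5 of 6 combinations (-1.34 ± 0.13), and the ranges overlapped. In C/D its log2 fold change was 0.015 ± 0.047. Dhrs9, a short-chain dehydrogenase/reductase gene, was at 1.02, 3.58 and 7.16 CPM in A/B NK_TP2 libraries, against 2.85, 7.16 and 11.8 CPM alone (-1.14 ± 0.14), lower in 6 of 6 combinations, but in experiment 9.5 at only -0.158 (edgeR adjusted p = 0.553), and stood at -0.07 ± 0.08 in C/D. Both fell at NK_TP2 and not at NK_TP1, where they were at -0.24 ± 0.12 and 0.15 ± 0.12. Inpp5a, an inositol polyphosphate phosphatase gene, was at 13.4, 16.0 and 21.1 CPM at NK_TP2, against 28.2, 33.2 and 48.2 CPM alone, with no overlap (-1.07 ± 0.07). The other large falls in A/B at NK_TP2 were Zfp827 (-1.24), near Plekhg1 (-1.20), Gm25534 (-1.07), near Gm47952 (-1.06) and near Adra2c (-1.0). At NK_TP1 near AC154652.1 (-0.93), near Rtn4rl1 (-0.92) and near Gm5214 (-0.88) fell too.

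In C/D the largest fall was near Gm18513 (chr10:52172522-52175965), at 1.11, 5.05 and 8.76 CPM in NK_TP1 and 1.48, 2.85 and 5.15 CPM in NK_TP2 libraries, against 2.25, 10.0 and 13.7 CPM alone. Its log2 fold change at NK_TP2 was -1.49 ± 0.10 in C/D, lower in 8 of 8 combinations, and -0.38 ± 0.09 in A/B. In experiment 9.5.1 it was only -0.409 (edgeR adjusted p = 0.794). This member was also the 1 that fell in C/D at NK_TP1 (-0.87 ± 0.09), with -0.269 in 9.5.1 (edgeR adjusted p = 0.776). Ppargc1a, a coactivator of mitochondrial biogenesis, fell in C/D by 1.05 on the log2 scale (SE 0.12), at 2.37, 4.56 and 10.0 CPM at NK_TP2, against 5.37, 10.3 and 24.6 CPM alone, and stood at -0.05 ± 0.12 in A/B. The member near Stk17b, a serine/threonine kinase gene, fell in C/D (-0.99 ± 0.12). Within 9.5.1 neither Ppargc1a (-0.473, edgeR adjusted p = 0.614) nor near Stk17b (-0.747, adjusted p = 0.249) was called. Within 9.6.1 near Stk17b stood at -0.221 (adjusted p = 0.625).

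Ighd2-4 is a D segment of the immunoglobulin heavy chain locus, joined or lost when V(D)J recombination assembles the gene, and its member (chr12:113470615-113473704) fell with NK cells in both parental lines, but by cell line. In line A the group means at NK_TP2 were 3.02, 0.783 and 1.71 CPM in experiments 9.5, 9.6 and 9.7, against 13.1, 12.6 and 11.6 CPM alone. In line B they were 10.7, 6.61 and 9.53 CPM, against 12.7, 9.75 and 8.5 CPM. In line C they were 0.147, 0.417, 0.83 and 1.26 CPM at NK_TP2, against 2.56, 1.71, 5.52 and 7.05 CPM alone in experiments 9.5, 9.5.1, 9.6 and 9.7. In line D they were 8.43, 3.42, 12.5 and 5.31 CPM at NK_TP2, against 13.9, 9.38, 13.1 and 13.2 CPM alone in 9.5, 9.6, 9.6.1 and 9.7. The log2 fold changes were -1.17 ± 0.19 for A/B and -1.32 ± 0.14 for C/D. The difference between lines of a pair was not tested, and clones that differ in their rearrangements and a change of chromatin in each cell cannot be told apart. A second member that fell in both, near A630075F10Rik, changed by -0.99 ± 0.11 (A/B) and -1.07 ± 0.07 (C/D). Within 9.5.1 it was not called (-0.774, edgeR adjusted p = 0.0769).

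The calls of the parental lines were set side by side. Among the 4615 members tested in both, 125 rose in A/B and 41 in C/D at NK_TP2, and 36 rose in both, which were 28.8% of the A/B and 87.8% of the C/D members. At NK_TP1, 178 A/B and 44 C/D members rose, with 42 in both (23.6% and 95.5%). Of the falls at NK_TP2, 47 in A/B and 27 in C/D, 3 were in both (6.38% and 11.1%). Over all 45572 peaks tested in both, 34.1% of A/B and 76.9% of C/D rises at NK_TP2 were shared, 32.2% and 97% at NK_TP1, and 13.1% and 24.8% of the falls at NK_TP2. These are counts of calls at one threshold without a test of the overlap.

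**Figure D5:**
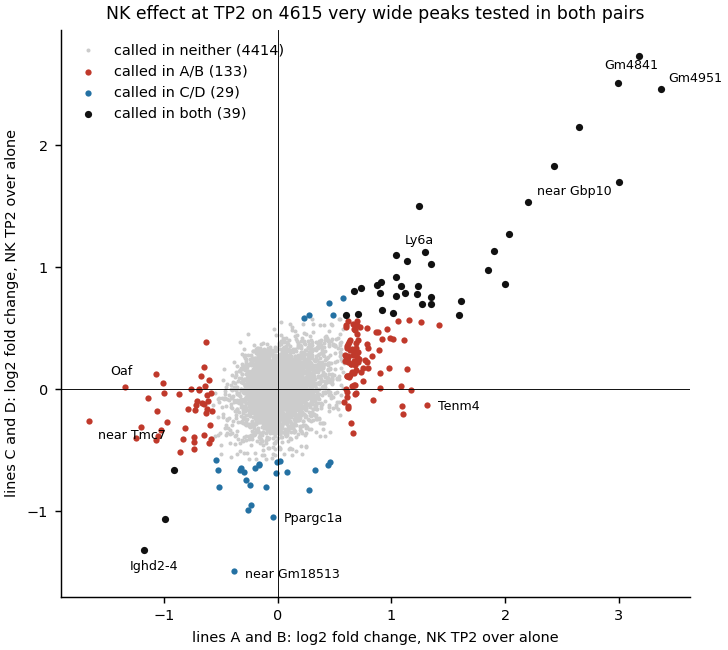
Log2 fold change of NK_TP2 over B-ALL alone in A/B (x axis) and in C/D (y axis) for the 4615 members tested in both, coloured by where they were called. The 39 members called in both run along the diagonal from Ighd2-4 to Gm4951, while Tenm4, Oaf and near Tmc7 lie near 0 on the C/D axis.

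The NK effect itself was compared between A/B and C/D with an interaction term over 5000 members. At TP2 it was higher in A/B for 98 members and lower for 37 (1.96% and 0.74%, against 2.86% and 1.72% of all 58886 peaks). At TP1 it was higher for 99 and lower for 8 (1.98% and 0.16%, against 3.23% and 0.571%). The TP1 counts moved with the libraries used, and together they were 15 without the libraries numbered replicate 1, 239 without those numbered 2 and 143 without those numbered 3. With a single parental line on each side, p-values of this term measure the spread between libraries. Tenm4 differed by 1.43 ± 0.14 at TP2 (edgeR adjusted p = 3.58e-15), near Gm7726 by 1.33 ± 0.26 and Sh2d4b by 1.29 ± 0.22, all higher in A/B. The member near Gm7726 had been too sparse for the test within C/D. It can enter this one through its A/B NK groups, as can interferon members sparse in B-ALL alone. Such values are a description. Near Tmc7 (-1.42 ± 0.13), Oaf (-1.39 ± 0.12) and Inpp5a (-1.21 ± 0.09) were lower in A/B. Of the interferon members, Gm4951 differed at TP2 by 0.89 ± 0.23 (adjusted p = 0.00364) and Iigp1 by 0.43 ± 0.20 (adjusted p = 0.12), and Ly6a by -0.08 ± 0.09 (adjusted p = 0.608) and Rtp4 by 0.01 ± 0.15 (adjusted p = 0.977).

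Few members moved between the time points with NK cells. In A/B, 1 member rose and 27 fell at NK_TP2 compared with NK_TP1 (0.0213% and 0.575%, against 0.112% and 1.52% of all peaks). In C/D, 2 rose and 17 fell (0.0407% and 0.346%, against 0.207% and 0.438%). Without the libraries numbered replicate 2 the A/B count was 74, and without those numbered 1 it was 16. The 1 member that rose in A/B was Tenm4 (0.62 ± 0.08), and without the replicate 2 libraries its value was 0.558, below the fold threshold. The largest falls in A/B were Dhrs9 (-1.29 ± 0.13), Gm5970 (-1.29 ± 0.16) and Oaf (-1.11 ± 0.13). Within experiments, 194 members rose and 40 fell in A/B in 9.6, 3 rose and 16 fell in 9.5, and 8 rose and 118 fell in 9.7. The rises in 9.6 were 4.13% of members, against 3.78% of all peaks, and the falls in 9.7 were 2.51%, against 3.26%.

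In C/D the largest falls at NK_TP2 compared with NK_TP1 were near Fam71a (-1.29 ± 0.12), near Cd69 (-1.08 ± 0.09) and near Klf6 (-1.0 ± 0.15). Cd69 encodes a lectin of early lymphocyte activation, and its member was at 10.9, 31.3 and 55.1 CPM in C/D NK_TP1 libraries and 7.37, 14.3 and 27.3 CPM in NK_TP2 libraries, with 11.1, 25 and 42.0 CPM alone. The ranges overlapped. In A/B the same member was at 0.03 ± 0.11 between the time points. The 2 that rose were Arhgef1 (0.68 ± 0.17), a RhoGEF gene, and near Tmem201 (0.61 ± 0.11). Neither was called without the libraries numbered replicate 2 (0.463 and 0.472) or without replicate 2 of D NK_TP2 in experiment 9.6 (0.525 and 0.527). Without that 1 library the C/D count was 15. In C/D the counts within experiments were 488 higher and 14 lower in 9.5, 3 and 22 in 9.5.1, 426 and 64 in 9.6, 6 and 22 in 9.6.1, and 277 and 491 in 9.7. The rises in 9.5 and 9.6 were 9.92% and 8.66% of members, against 8.9% and 7.92% of all peaks, and the falls in 9.7 were 9.98%, against 10.2%.

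In the fits over all experiments, more members were called between the parental lines than between NK and alone libraries of either, but within 9.7 there were 580 between the lines and 938 in C/D at NK_TP2. In B-ALL alone, 151 members were higher and 348 lower in A/B than in C/D (3.18% and 7.33% of 4746, against 4.24% and 11.1% of all 49125 peaks). The split depended on the filter, and with no filter on low counts it was 330 higher and 266 lower, with a median log2 difference over all peaks of -0.0772 in place of 0.0303. Within experiments experiment 9.5 had 211 higher and 448 lower, 9.6 had 99 and 370, and 9.7 had 205 and 375. Their shares of members ran over 2.09% to 4.45% higher and 7.8% to 9.44% lower, against 3.11% to 5.92% and 10.9% to 12.9% of all peaks. Members lower in A/B had a median density of 2.63 CPM per kb and those higher 5.81, and 28.7% and 29.1% held a protein-coding TSS, against 41.7% of tested members.

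Ptpn14, a protein tyrosine phosphatase gene, had the member (chr1:189726165-189729552) with the largest difference, at 34.5, 50.9 and 67.3 CPM in A/B alone, against 0.999, 3.7 and 6.8 CPM in C/D alone. Its log2 difference was 3.68 ± 0.10, and the groups did not overlap. Further members higher in A/B were near Ptpn14 (3.06), 2610035D17Rik (2.63), Gpr65 (2.56), near Gm44127 (2.05), near Grb10 (1.75), Ccdc34 (1.70) and near Gm18513 (1.69). Gpr65, a proton-sensing receptor of lymphocytes, was at 16.1, 30.5 and 43.4 CPM in A/B alone, against 2.66, 4.3 and 7.99 CPM in C/D alone, again with no overlap.

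The member with the largest excess in C/D was near Tspan5, a tetraspanin gene, at 1.95, 3.43 and 6.67 CPM in A/B alone, against 15.4, 29.9 and 49 CPM in C/D alone (-2.99 ± 0.11). It was followed by 4930479H17Rik (-2.77), near Gm24073 (-2.54), Gm30411 (-2.46), Robo3 (-2.44), near B3galt5 (-2.33), near Siah1a (-2.26) and 1700065J18Rik (-2.15). Robo3, an axon guidance receptor gene, overlapped no called peak in 18 A/B alone libraries and one in each of 23 C/D alone libraries. It therefore entered the test through its C/D groups, and its value is a description. Other members sparse in A/B alone or in C/D alone can enter this comparison in the same way, through the lines where they are high. In the gene lists, H2-Q6 was higher in A/B alone (0.58 ± 0.05), and 3 of 10 tested homeobox members were lower. A comparison of 2 parental lines has 1 line on each side and no replicate of the lines, so its p-values measure the spread between libraries and experiments.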

How the data were processed

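ATAC-seq of sorted GFP+ B-ALL cells was deposited as raw counts of read pairs per consensus peak and as 1 list of broad peaks per library with −log10 q values, both made by the authors. Per the file headers, the study methods and the submitters' processing notes, reads were aligned with STAR (version not given for ATAC-seq in the sources used here) to GRCm38, duplicates were marked with Picard 2.27.4, broad peaks were called per library with MACS2 2.2.7.1, consensus peaks were merged over the libraries with BEDTools and counts were made with featureCounts. The sources used here do not give the treatment of reads mapping to several places. The table's start equals that of the 0-based peak lists, so a length counts 1 bp more than the union of the single peaks.

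Members, gene lists and tests were chosen with earlier results of these data known. Members were the consensus peaks of 3000 bp or longer on chromosomes 1 to 19. TSSs were from GENCODE M21, promoters from RefSeq on GRCm38.p6. Counts were tested over all peaks with edgeR 4.0.16 (quasi-likelihood F test, TMM, R 4.3.3), with the combination of cell line and experiment as a term, and adjusted by Benjamini-Hochberg over all peaks tested. A peak was tested when it overlapped a broad peak in every library of at least 1 group and passed edgeR's count filter. The thresholds of a call were 0.05 for the adjusted p and 0.58 for the size of the log2 fold change. CPM used TMM-scaled totals of all consensus peaks, 3083547 to 13580746 per library. Values per library were compared over 14 combinations with exact sign-flip permutation tests (scipy 1.17.1), two-sided. In 2 pairs of libraries (replicates 2 and 3 of C NK_TP2 in 9.5 and of C alone in 9.5.1) counts differed by less than sampling noise, and the mean of each pair entered as 1 sample (123 in all). The labels number replicates without tying them to cultures, so p-values measure the spread between these libraries.

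The text names the 10 widest members, the 5 densest and 5 sparsest in B-ALL alone, the 5 largest rises and falls of each comparison with NK cells among members called and alike in direction in every combination, 8 each way in A/B against C/D, 3 each way in the remaining comparisons, up to 4 of each of 15 gene lists (further GTPase members were added after their values were seen), the 2 nearest the length limit on each side, the 5 most split and the 5 widest in 1 library. Alternatives were DESeq2 1.42.0, a loess offset (limma 3.58.1), other filters and lengths, single experiments, left-out replicates and a replicate block. On simulated counts for 48997 peaks of the A/B comparison at NK_TP2, all 34 peaks raised by a fold of 2 and all 32 raised by a fold of 4 were called, 18 of 34 raised by a fold of 1.5, and 0 of 48797 unchanged peaks. The simulation used a mean per peak and a common dispersion, without effects of cell line or experiment. It therefore does not give the rate of false calls in the real libraries.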

Additional observations from a re-analysis of the deposited data

Results flagged for a closer look

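Of 48 groups of combinations checked for a value far from the others, 3 had one, and chance gives about 1 in 20. Line D in experiment 9.7 had 716 more members called at NK_TP1 than alone, against a median of 202 in the other C/D combinations. Line B in 9.7 had 2.19 Mb more called width at NK_TP2, against a median of -0.516 Mb in the other A/B combinations. Near A630075F10Rik changed by -1.5 on the log2 scale at NK_TP2 in line D in 9.7, against -0.93 in the others.

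The NK effect differed between A/B and C/D in the share of counts within members at TP1 (-1.04 percentage points, exact permutation p = 0.00133) and in the following members by an interaction term (edgeR log2 difference with its adjusted p). With a single parental line on each side, these p-values do not measure a spread between parental lines. Higher in A/B at TP2 were the interferon members Gm4951 (0.893, adjusted p = 0.00364), AC132320.1 (1.29, 0.0107), near BC023105 (0.755, 0.0145) and the second Iigp1 member (0.583, 0.0426). So were near Gm7726 (1.33, 5.84e-05), Tenm4 (1.43, 3.58e-15) and Sh2d4b (1.29, 5.3e-06). Members sparse in B-ALL alone, such as near Gm7726 and the first Iigp1 member, can enter this test through their NK groups. For such members the values given here and at TP1 are a description. Members that fell in C/D stood higher in A/B in the same test, namely near Gm18513 (1.09, 9.35e-10), near Klf6 (1.08, 0.000403), near Fam71a (1.04, 9.61e-05), Ppargc1a (0.978, 2.83e-05), near Cd69 (0.977, 7.17e-07) and near Stk17b (0.704, 0.00229).

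Lower in A/B at TP2 were near Tmc7 (-1.42, adjusted p = 3.53e-16), Oaf (-1.39, 1.18e-16), Inpp5a (-1.21, 1.77e-20), Dhrs9 (-1.09, 3.25e-08), near Adra2c (-0.993, 1.17e-10), near Plekhg1 (-0.924, 6.63e-08), near Gm47952 (-0.902, 3.54e-11), Zfp827 (-0.863, 3.66e-10), Gm25534 (-0.669, 1.6e-05) and near AC154652.1 (-0.633, 0.000256).

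At TP1 the interferon members were higher in A/B as well, with AC132320.1 at 1.64 (adjusted p = 0.00121), near BC023105 at 1.4 (1.02e-05), Gm4951 at 1.2 (0.000148), the second Iigp1 member at 1.2 (3.64e-05), F830016B08Rik at 0.877 (0.0123) and the first Iigp1 member at 0.757 (0.00391). Also higher were near Gm7726 (1.38, 0.000106), Sh2d4b (1.13, 0.000131), Tenm4 (0.809, 1.42e-05) and Ppargc1a (0.582, 0.0107). Lower were near Tmc7 (-0.789, 2.75e-06), near Adra2c (-0.672, 2.58e-05), near Spocd1 (-0.647, 0.00151), near Rtn4rl1 (-0.615, 0.00041) and near AC154652.1 (-0.606, 0.000781). Without the libraries numbered replicate 1, AC132320.1 (1.23, adjusted p = 0.214), near Gm7726 (0.858, 0.129), near Spocd1 (-0.43) and near Adra2c (-0.542) were no longer called at TP1.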

How the results depend on the processing

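Counts of members called are given for NK_TP2 and NK_TP1 against alone, NK_TP2 against NK_TP1, A/B against C/D alone, and the difference in NK effect, and the cause of each shift was not tested except where fewer peaks were tested by construction. DESeq2, the loess offset and the replicate block kept each total within 1.5 times, but with the loess offset 13 members fell in A/B at NK_TP1 in place of 24. Tested only where called in every library, the counts were 24 (A/B) and 7 (C/D) at NK_TP2, 35 and 5 at NK_TP1, 4 and 1 between time points, 138 between parental lines, and 10 (TP2) and 6 (TP1) for the NK effect. With members of 4000 bp or longer they were 30 and 14, 34 and 10, 2 and 4, 74, and 19 and 18 in the same order. With no filter, C/D counts were 82 at NK_TP1 and 37 between time points, and A/B at NK_TP2 had 93 higher and 68 lower. Within single experiments, the counts at NK_TP2 in A/B were 336 (9.5) and 335 (9.6), and in C/D 456 (9.5), 18 (9.5.1), 192 (9.6), 372 (9.6.1) and 938 (9.7). At NK_TP1 they were 385 (9.5) and 372 (9.7) for A/B, with 68 (9.5), 20 (9.5.1), 137 (9.6.1) and 155 (9.7) for C/D. Between time points they were 234 (9.6) and 126 (9.7) for A/B, with 502 (9.5), 490 (9.6) and 768 (9.7) for C/D. Leaving out the libraries of 1 replicate number gave 169 to 189 in A/B and 75 to 88 in C/D at NK_TP2, 180 to 274 and 40 to 55 at NK_TP1, 16 to 74 and 14 to 32 between time points, 453 to 562 between parental lines, and 105 to 176 (TP2) and 15 to 239 (TP1) for the NK effect.

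Directions turned in C/D at NK_TP2 near Btg1 (0.588) and near Klf6 (0.0207) in experiment 9.5, and at Stat2 (-0.611), Gzmb (-1.14) and the second Nfkbiz member (-0.645) in 9.7, and between time points near Tmem201 (-0.146) in 9.6.1. The share of counts in members at NK_TP1 changed by -0.679 points in A/B and 0.359 in C/D. Over means of the 5 experiments, where 0.0625 is the smallest exact p, the rise in members called at NK_TP1 was 217 (exact permutation p = 0.0625) and in called width 0.481 Mb (exact permutation p = 0.1875), and in A/B alone the width rose by 0.325 Mb (exact permutation p = 0.25). Without 1 replicate number these differences were 209 to 263 members and 0.504 to 0.802 Mb, and at NK_TP2 -85.4 to 32.3 members, -0.047 to 0.089 Mb and -0.280 to -0.172 points of share, with -0.164 to -0.048 points at NK_TP1. Ciita (0.625 without replicate 1) and the second Nfkbiz member (0.625 without replicate 3) passed the fold threshold in A/B at NK_TP2. Whether the replicate numbers pair the libraries is uncertain. Deviations were correlated over 0.1 in 52 of 120 same-numbered pairs (median r 0.0419) and in 71 of 240 others (median r -0.0152). With the replicate block the counts were 178 and 76 at NK_TP2, 212 and 45 at NK_TP1, 31 and 19 between time points, 500 between parental lines, and 135 and 103 for the NK effect. Leaving out replicate 2 of D NK_TP2 in 9.6, chosen after seeing the data, gave 72 members in C/D at NK_TP2 and 124 and 112 for the NK effect. The loess offset, the unfiltered fit and single experiments were not planned for the NK effect. Total counts of 3083547 to 13580746 limit what can be seen in members under 2 CPM per kb, of which there were 936.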

Other observations

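Repeats covered little of most members, with a median of 15.2% of bases masked, and 63 members were masked over more than 50%. The member of Gm10722 and Gm11168 (chr9:3000527-3003692) was masked over 96.8% of its bases and was called in 125 libraries, and the member near Ighv1-62-2 was masked over 84.6%. How many of their reads belong to other copies was not tested. The blacklist named in the study's methods is for the human genome, and whether such regions of the mouse genome were removed was not known here. At the NK_TP2 comparison in A/B, 21.5% of bases were masked in the median member that rose, against 15.1% in all tested members.

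Wide members were not all constant ones. There were 802 members (15.5%) called in 62 or fewer libraries and 9 called in under 10, while 2199 (42.4%) were called in all 125.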
